A study of Homo sapiens with 12 samples.

Results

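The ADAM and ADAMTS genes encode zinc metalloproteases. The 10 described here are ADAM8, ADAM9, ADAM10, ADAM12, ADAM15, ADAM17, ADAM19, ADAMTS1, ADAMTS6 and ADAMTS12. They were taken from the count table by symbol, through their Ensembl identifiers, and are 10 of its 57992 genes. The choice was made with measured values of these libraries in view, so the levels and changes of the 10 genes are given as a description, with calls but without p-values.

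The RNA came from BT-549 and SUM149, established human breast cancer lines of the triple-negative kind, which is defined by the lack of estrogen receptor, progesterone receptor and HER2. Each line stably carried MUC1shRNA, a hairpin aimed at the transmembrane mucin MUC1-C, or CshRNA, a control hairpin, which gave 4 groups of 3 libraries: BT-549 MUC1shRNA, BT-549 CshRNA, SUM149 MUC1shRNA and SUM149 CshRNA. Other labels name the BT-549 controls vector, so their hairpin is uncertain, and only 1 hairpin against MUC1 is named. BT-549 was grown in RPMI1640 and SUM149 in Ham's F-12 with hydrocortisone, so line and medium cannot be told apart. The labels speak of triplicate cultures and do not say whether these were separate introductions of the hairpin, so errors and p-values reflect only how these cultures varied.

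ADAM proteases sit in the plasma membrane with a propeptide, a metalloprotease domain and a disintegrin domain outside the cell. The active ones are sheddases: they cut other membrane proteins close to the surface and release their ectodomains, among them growth factors, cytokines, adhesion proteins and Notch receptors. ADAMTS proteases have a related catalytic domain, carry thrombospondin repeats in place of the membrane anchor, are secreted, and cut proteins of the extracellular matrix such as proteoglycans. Both kinds are made as inactive precursors that furin-like convertases cut, and tissue inhibitors of metalloproteinases (TIMPs) block the mature enzymes. The amount of mRNA therefore says nothing direct about protease activity.

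The 3 genes with the largest fold changes in SUM149 were ADAM19, ADAMTS6 and ADAMTS12, and all 3 lie on the minus strand of chromosome 5. Their 250 bases before the start of the gene are shown because these are the members that moved most (RefSeq, GRCh38.p14, 5′ to 3′ on the minus strand). Capitals mark matches, on both strands, to any of 5 motifs: the GC box GGGCGG, the AP-1 site TGANTCA, the TATA box TATAAA, the E-box CANNTG and the ATF4 element TGATGNAA.
ADAM19, chr5:157575776-157576025: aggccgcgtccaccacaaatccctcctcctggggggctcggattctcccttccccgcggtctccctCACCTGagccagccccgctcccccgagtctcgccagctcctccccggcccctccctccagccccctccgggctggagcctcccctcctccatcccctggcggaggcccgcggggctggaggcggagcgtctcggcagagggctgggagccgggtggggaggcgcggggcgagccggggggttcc
ADAMTS6, chr5:65481921-65482170: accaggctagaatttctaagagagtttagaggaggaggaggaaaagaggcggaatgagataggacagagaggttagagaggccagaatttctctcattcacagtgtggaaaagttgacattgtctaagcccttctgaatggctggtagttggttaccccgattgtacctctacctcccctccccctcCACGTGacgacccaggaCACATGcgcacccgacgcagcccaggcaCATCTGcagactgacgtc
ADAMTS12, chr5:33891991-33892240: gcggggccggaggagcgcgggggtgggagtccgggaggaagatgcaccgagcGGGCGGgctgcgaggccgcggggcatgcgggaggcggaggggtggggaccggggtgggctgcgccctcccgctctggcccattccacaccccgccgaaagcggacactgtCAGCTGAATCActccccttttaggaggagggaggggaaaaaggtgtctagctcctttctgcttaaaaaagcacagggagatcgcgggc

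The ADAM19 window held 1 E-box and the ADAMTS6 window held 3. The ADAMTS12 window held 1 GC box and 1 E-box that overlaps an AP-1 match. Of all 27305 promoters in the RefSeq table, 62.2% held an E-box, 42.3% a GC box, 6.60% an AP-1 match, 11.1% a TATA box and 3.19% an ATF4 element in this window. All members except ADAM9 and ADAMTS1 were matched there, 8 in all. Of those 8, 7 held an E-box, 6 a GC box, 1 an AP-1 match, and 0 a TATA box or an ATF4 element. The ADAMTS6 window had 52.4% G and C and 8 CpG pairs, below the all-promoter medians of 58.0% and 11. The other 7 windows had 68.4% to 79.6% G and C and 21 to 36 CpG pairs, all above those medians.

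Depth ran from 16373893 to 21248768 counts in BT-549 MUC1shRNA libraries, from 16332364 to 20745835 in BT-549 CshRNA libraries, from 7931614 to 9623924 in SUM149 MUC1shRNA libraries and from 19392422 to 24140623 in SUM149 CshRNA libraries. In SUM149 the CshRNA libraries were thus 2.44 times as deep on average. MUC1, the target of the hairpin, had 4.63 ± 1.24 CPM in BT-549 MUC1shRNA and 53.2 ± 1.24 CPM in BT-549 CshRNA libraries, and 0.625 ± 0.384 CPM in SUM149 MUC1shRNA and 15 ± 2.51 CPM in SUM149 CshRNA libraries (SD, n = 3 each). BT-549 MUC1shRNA 2, BT-549 CshRNA 3 and SUM149 CshRNA 3 lay away from their own groups on the second principal component of their line. Levels are CPM (each library's counts scaled to a common total, with TMM factors over all 12 libraries), while log2 fold changes come from edgeR's fit of each line alone. Of the receptors whose lack defines the tumour type, PGR had 0 counts in BT-549 MUC1shRNA and 1 count in BT-549 CshRNA libraries. In SUM149 it had 3 counts with MUC1shRNA and 34 counts with CshRNA, all 34 in CshRNA 3. ERBB2, which encodes HER2, had mean levels of 46.5 CPM in BT-549 MUC1shRNA and 48.4 CPM in BT-549 CshRNA libraries. Its SUM149 levels were 36.5 ± 2.34 CPM in MUC1shRNA and 58.5 ± 3.09 CPM in CshRNA libraries. ESR1, which encodes the estrogen receptor, had 4.88 ± 0.150 CPM in SUM149 MUC1shRNA and 2.31 ± 0.290 CPM in SUM149 CshRNA libraries. It was called higher in SUM149 (1.09, SE 0.20, edgeR adjusted p = 3.6e-04). In BT-549 it had 6 counts over the MUC1shRNA libraries and 3 counts over the CshRNA libraries.

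Among the 10 genes, as over all tested genes, the changes in SUM149 were wider than those in BT-549. In SUM149, ADAM12, ADAM19, ADAMTS6 and ADAMTS12 rose and ADAM15 and ADAM17 fell with MUC1shRNA, 6 of 10 tested members, in a fit where 56.5% of all 14178 tested genes were called (27.6% higher and 28.9% lower). In BT-549, ADAM10, ADAM17, ADAM19 and ADAMTS12 rose and ADAMTS1 fell, 5 of 9 tested members, in a fit where 33.3% of all 13200 tested genes were called (16.8% higher and 16.5% lower). The members' log2 fold changes ran from -0.57 to 4.81 in SUM149, with a median of 0.11, and from -0.40 to 0.69 in BT-549, with a median of 0.16. Over all tested genes the medians were -0.03 and -0.01. The median absolute log2 fold change in SUM149 was 0.52 for the members and 0.37 for all tested genes. In BT-549 it was 0.23 for the members and 0.21 for all tested genes. The libraries of the arms did not overlap for 7 members in SUM149, against 62.6% of all genes, and for 6 in BT-549, against 47.0% of all genes. A gene was called at an edgeR adjusted p below 0.05, and these shares of members were not read as a result because the members were picked from these comparisons. In bulk RNA, fewer cells that express a gene and less RNA per cell cannot be told apart.

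**Figure D1:**
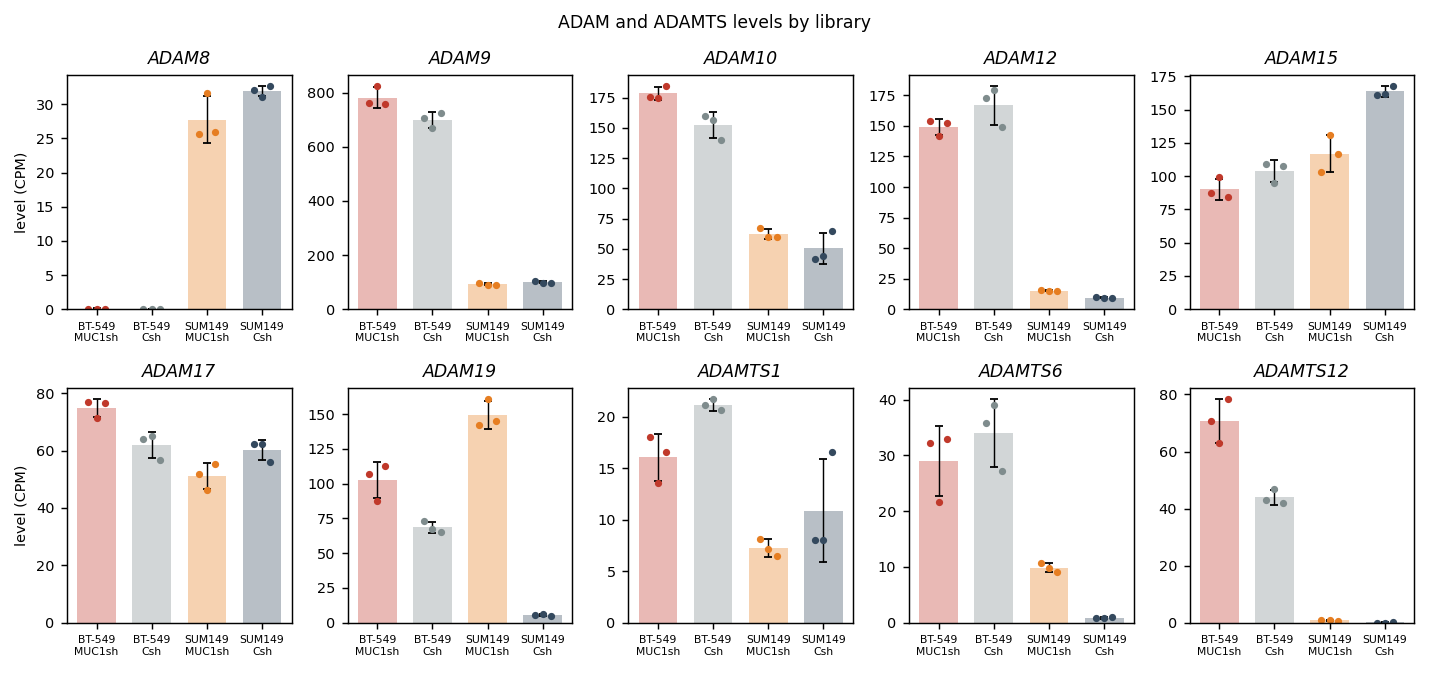
Level in CPM (vertical axes, each starting at 0) of the 10 genes in the 4 groups, named MUC1sh and Csh under each line. Bars are means of 3 libraries, error bars are SD and points are libraries; ADAM19 stands at 150 CPM in SUM149 MUC1shRNA and 5.39 CPM in SUM149 CshRNA, and ADAM8 is near 0 in both BT-549 groups.

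ADAM19 and ADAM12, the meltrins, form the first pair by role. ADAM19 (meltrin beta, known for shedding neuregulin) is ENSG00000135074.15, GRCh38 chromosome 5, 157395534 to 157575775, minus strand. In SUM149 it had 142, 161 and 145 CPM in MUC1shRNA libraries 1 to 3, against 5.51, 5.91 and 4.74 CPM in the CshRNA libraries. All MUC1shRNA libraries thus lay far above all CshRNA libraries. The log2 fold change was 4.81 (SE 0.10), a 28.0-fold rise and the 10th highest of the 14178 genes tested in that line. In BT-549 it had 107, 87.7 and 113 CPM with MUC1shRNA, against 73.2, 67.7 and 65.4 CPM with CshRNA. These groups did not overlap either, and the rise was smaller, 0.57 (SE 0.09). Its call was kept in both lines under each alternative scaling, filter, tool, thinning, block and left-out library that was run.

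ADAM12 (meltrin alpha, made as a membrane form and a secreted short form that gene counts do not separate) is ENSG00000148848.14, chromosome 10, 126012381 to 126388455, minus strand. SUM149 cells had 15.4, 14.6 and 15.2 CPM in MUC1shRNA libraries, against 10.2, 9.45 and 9.07 CPM in CshRNA libraries. The groups did not overlap, and the log2 fold change was 0.67 (SE 0.11). BT-549 levels were higher in both arms, with 154, 142 and 152 CPM in MUC1shRNA and 173, 179 and 149 CPM in CshRNA libraries. Those BT-549 groups overlapped, since CshRNA 3 lay within the MUC1shRNA range, and the log2 fold change of -0.17 (SE 0.07) was not called. Without CshRNA 3 it was -0.24 and was called.

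ADAM10, ADAM17, ADAM9 and ADAM15 are the broadly expressed membrane proteases. ADAM10 cuts Notch receptors and the amyloid precursor protein (ENSG00000137845.14, chromosome 15, 58588807 to 58749978, minus strand). In BT-549 it had 176, 175 and 185 CPM with MUC1shRNA, against 160, 157 and 140 CPM with CshRNA. The MUC1shRNA libraries were the higher ones without overlap, and the log2 fold change was 0.23 (SE 0.06). That call was lost without MUC1shRNA 1 (0.24) or MUC1shRNA 3 (0.21). In SUM149 it had 67.2, 60.1 and 60.1 CPM with MUC1shRNA, against 41.6, 44.4 and 64.9 CPM with CshRNA. CshRNA 3, the SUM149 library that stood apart, was the high control here and made the groups overlap. The SUM149 log2 fold change was 0.33 (SE 0.13) and was not called with all libraries, while without CshRNA 3 it was 0.54 (SE 0.08) and was called.

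ADAM17 is the enzyme that releases tumour necrosis factor and several ligands of the EGF receptor (ENSG00000151694.12, chromosome 2, 9488486 to 9556732, minus strand). It was called in opposite directions in the lines. In BT-549 it had 76.8, 71.4 and 76.6 CPM with MUC1shRNA, against 63.9, 65.2 and 56.8 CPM with CshRNA, a log2 fold change of 0.27 (SE 0.07) without overlap. In SUM149 it had 51.7, 46.3 and 55.2 CPM with MUC1shRNA, against 62.2, 62.2 and 56.0 CPM with CshRNA, a log2 fold change of -0.22 (SE 0.08) without overlap, although MUC1shRNA 3 and CshRNA 3 nearly met. Both calls were fragile. The BT-549 call was lost without MUC1shRNA 1 (0.26) or MUC1shRNA 3 (0.26). The SUM149 call was lost with DESeq2 (-0.20) and without CshRNA 1 (-0.20), CshRNA 2 (-0.20), MUC1shRNA 1 (-0.22) or MUC1shRNA 2 (-0.13). Of its exon bases, 13.6% overlap genes on the other strand, mainly IAH1, and it is unknown whether the counting used strand.

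ADAM15 carries an integrin-binding motif in its disintegrin domain (ENSG00000143537.13, chromosome 1, 155050566 to 155062775, plus strand) and lies 123 kb from MUC1. Its SUM149 levels were 103, 131 and 117 CPM with MUC1shRNA, against 161, 162 and 168 CPM with CshRNA. All MUC1shRNA libraries were below all CshRNA libraries, and the log2 fold change was -0.47 (SE 0.08). The BT-549 levels were 87.1, 99.1 and 84.4 CPM with MUC1shRNA, against 109, 94.6 and 108 CPM with CshRNA. These overlapped through MUC1shRNA 2 and CshRNA 2, and the log2 fold change of -0.21 (SE 0.08) was not called with all libraries but was called without MUC1shRNA 2 (-0.28) or CshRNA 2 (-0.27). DCST1, on the same strand, shares 4.65% of its exon bases.

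ADAM9 is a membrane protease with a catalytically active domain (ENSG00000168615.11, chromosome 8, 38996869 to 39105144, plus strand). Its BT-549 levels were 761, 826 and 758 CPM with MUC1shRNA, against 707, 668 and 724 CPM with CshRNA. The SUM149 levels were 96.8, 88.8 and 90.5 CPM with MUC1shRNA, against 103, 97.0 and 98.5 CPM with CshRNA. The groups stood apart in both lines, above the controls in BT-549 and below them in SUM149, by narrow margins. The log2 fold changes of 0.16 (SE 0.06) in BT-549 and -0.10 (SE 0.07) in SUM149 were not called. The BT-549 value was called without CshRNA 3 (0.19), without MUC1shRNA 2 and CshRNA 3 together (0.14), with RLE scaling (0.16) and after thinning (0.16). The SUM149 value was called with upper-quartile scaling (-0.16).

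ADAM8 is a membrane protease known from leukocytes and osteoclasts (ENSG00000151651.15, chromosome 10, 133262403 to 133276868, minus strand). It was close to absent from BT-549, with 3 counts over the MUC1shRNA libraries and 1 count over the CshRNA libraries, and was not tested there. SUM149 libraries had 25.6, 31.7 and 25.9 CPM with MUC1shRNA, against 32.1, 31.1 and 32.6 CPM with CshRNA. MUC1shRNA 2 lay within the control range, and the log2 fold change of -0.19 (SE 0.09) was not called. Without MUC1shRNA 2 it was -0.28 and was called. The leukocyte marker CD3E had 0 counts in all 4 groups. CD14, a marker of monocytes, had 2.67 ± 0.480 CPM in SUM149 MUC1shRNA and 4.75 ± 0.205 CPM in SUM149 CshRNA libraries (SD, n = 3 each). In BT-549 CD14 had 0.900 CPM with MUC1shRNA and 0.751 CPM with CshRNA and was not called (0.25). The leukocyte marker PTPRC had 4 counts in SUM149 MUC1shRNA and 11 counts in SUM149 CshRNA libraries. The part of these markers in the level of ADAM8 was not tested.

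Of the secreted proteases, ADAMTS6, which acts on the extracellular matrix, had the largest fitted change in SUM149 (ENSG00000049192.14, chromosome 5, 65148736 to 65481920, minus strand). It had 10.7, 9.80 and 9.05 CPM in SUM149 MUC1shRNA libraries, against 0.728, 0.803 and 1.00 CPM in SUM149 CshRNA libraries, from 273 and 58 counts in all. Every MUC1shRNA library was above every control, and the log2 fold change was 3.55 (SE 0.20), a rise of 11.7-fold. BT-549 libraries had 32.3, 21.7 and 32.9 CPM with MUC1shRNA, against 35.8, 39.0 and 27.2 CPM with CshRNA. MUC1shRNA 2 and CshRNA 3, the libraries that stood apart in that line, were the low ones of their groups. The groups overlapped and the log2 fold change of -0.23 (SE 0.17) was not called. Without both of these libraries it was -0.19 and was called.

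ADAMTS12, known to cut cartilage oligomeric matrix protein, is ENSG00000151388.10, chromosome 5, 33523535 to 33892192, minus strand. In BT-549 it had 70.8, 63.1 and 78.4 CPM with MUC1shRNA, against 43.0, 46.7 and 41.9 CPM with CshRNA. The groups were well apart, and the log2 fold change of 0.69 (SE 0.08) was the largest of the members in that line. In SUM149 it was near the limit of detection, with 0.825, 0.890 and 0.674 CPM with MUC1shRNA, against 0, 0 and 0.274 CPM with CshRNA. These values rest on 22 counts and 6 counts, and all 6 control counts were in CshRNA 3. The log2 fold change was 3.09 (SE 0.79), and the ratio of the summed levels was 8.93 (95% interval 3.51 to 26.9, counting error only). Without CshRNA 3 the control level was 0, and the MUC1shRNA level was 12.3 times a floor of 3 counts over CshRNA 1 and 2. That ratio leaves out the counting error of the 22 MUC1shRNA counts, so it is no lower bound.

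ADAMTS1, which cuts aggrecan and versican, was the member that fell in BT-549 (ENSG00000154734.14, chromosome 21, 26835747 to 26845409, minus strand). It had 18.0, 13.5 and 16.6 CPM in BT-549 MUC1shRNA libraries, against 21.1, 21.7 and 20.6 CPM in BT-549 CshRNA libraries, a log2 fold change of -0.40 (SE 0.11) without overlap. The call was lost without CshRNA 1, with the value at -0.40. The SUM149 values were 8.13, 7.12 and 6.45 CPM with MUC1shRNA, against 8.0, 7.98 and 16.6 CPM with CshRNA. CshRNA 3 was again the high control, and the other two controls lay within the MUC1shRNA range. The SUM149 log2 fold change of -0.57 (SE 0.25) was not called, and without CshRNA 3 it was -0.15 (SE 0.15). It was called lower without CshRNA 1 (-0.76) or CshRNA 2 (-0.75), with no filter (-0.61), with the stricter filter (-0.59) and with DESeq2 (-0.56).

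**Figure D2:**
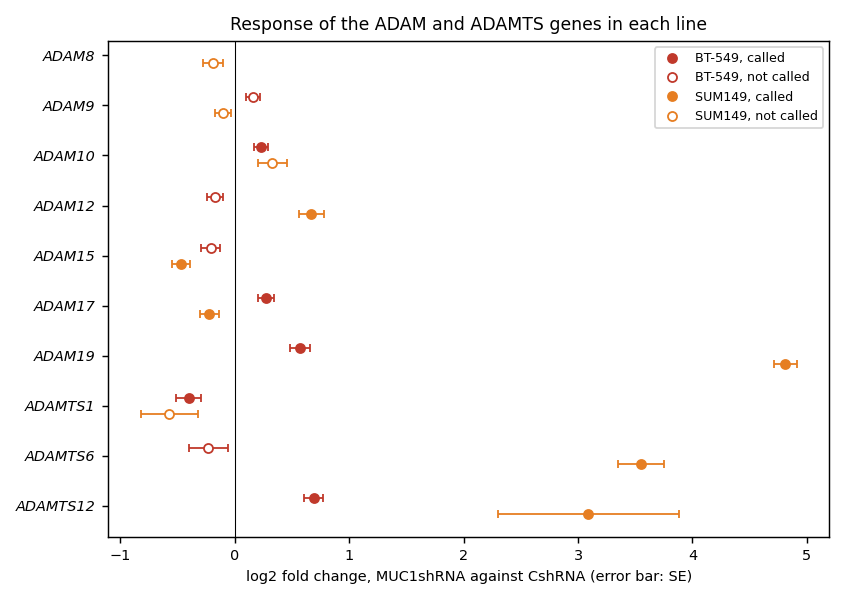
Log2 fold change of MUC1shRNA against CshRNA (horizontal axis) for each member in BT-549 and SUM149, with SE as error bars and filled points for called genes. ADAM19 at 4.81, ADAMTS6 at 3.55 and ADAMTS12 at 3.09 in SUM149 lie to the right of all other points, and ADAM17 lies on opposite sides of 0 in the lines.

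Responses were set against each other as BT-549 minus SUM149 in a fit over all 12 libraries, where 39.6% of 15649 genes were called (19.5% higher and 20.1% lower in BT-549). This difference was called for 6 of the 10 members. ADAM9 (0.27, SE 0.08) and ADAM17 (0.51, SE 0.11) responded more positively in BT-549. ADAM12 (-0.82, SE 0.12), ADAM19 (-4.22, SE 0.14), ADAMTS6 (-3.76, SE 0.30) and ADAMTS12 (-2.39, SE 0.72) responded more positively in SUM149. ADAM10 (-0.08, SE 0.18), ADAM15 (0.27, SE 0.12) and ADAMTS1 (0.19, SE 0.33) were not called, and no difference was read for ADAM8, which had 4 counts in BT-549. Without SUM149 CshRNA 3 the ADAM10 difference was -0.30 (SE 0.10) and was called. The ADAM9 call was lost without BT-549 MUC1shRNA 2 (0.23) or BT-549 CshRNA 2 (0.22), and the ADAMTS12 call was lost without SUM149 CshRNA 1 (-1.75). Without SUM149 CshRNA 3, which leaves the SUM149 controls at 0 counts, the fitted ADAMTS12 difference was -6.00, which is no bound.

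The control groups of the lines differed widely in these genes. In BT-549 CshRNA against SUM149 CshRNA, 9 of 10 members were called, in a comparison where 83.0% of 15649 genes were called (39.5% higher and 43.5% lower), and the members' median log2 fold change was 2.21. ADAM9 (2.81, SE 0.06), ADAM10 (1.60, SE 0.12), ADAM12 (4.12, SE 0.08), ADAM19 (3.67, SE 0.11), ADAMTS1 (0.96, SE 0.22), ADAMTS6 (5.33, SE 0.22) and ADAMTS12 (8.86, SE 0.28) were higher in BT-549. ADAM15 (-0.65, SE 0.08) and ADAM8 were lower in BT-549. For ADAM8 the groups held 1 count in BT-549 CshRNA and 2210 counts in SUM149 CshRNA, a ratio of levels of 0.000508 (95% interval 0.0000129 to 0.00283, counting error only). ADAM17 was the member whose difference was not called (0.04, SE 0.08), and its sign turned under upper-quartile scaling (-0.08). The ADAMTS12 value rests on the 6 counts of SUM149 CshRNA 3, since the other two SUM149 controls had 0.

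Levels per kilobase of exon compare genes only roughly, because the length merges all annotated exons and need not match the expressed transcripts. ADAM10 has 16.2 kb by this measure and ranks below ADAM15 in BT-549 CshRNA, although it had 152 CPM against 104 CPM. ADAM9 led in BT-549 with 113 CPM per kb in MUC1shRNA and 101 CPM per kb in CshRNA libraries. It made up 59.2% to 63.3% and 58.2% to 61.9% of the summed level per kb of the 10 genes in those groups. In BT-549 MUC1shRNA it was followed by ADAM12 (15.1 CPM per kb), ADAM15 (13.7), ADAM19 (13.3), ADAM10 (11.1), ADAMTS12 (7.24), ADAM17 (6.97), ADAMTS6 (3.39), ADAMTS1 (2.27) and ADAM8 (0.0118). Within that order, ADAM12 and ADAM15, ADAM15 and ADAM19, ADAM19 and ADAM10, ADAMTS12 and ADAM17, and ADAMTS6 and ADAMTS1 overlapped between libraries. In BT-549 CshRNA the order after ADAM9 was ADAM12 (17.0 CPM per kb), ADAM15 (15.8), ADAM10 (9.41), ADAM19 (8.92), ADAM17 (5.76), ADAMTS12 (4.49), ADAMTS6 (3.97), ADAMTS1 (3.00) and ADAM8 (0.00364). There, ADAM12 and ADAM15, ADAM10 and ADAM19, and ADAMTS12 and ADAMTS6 overlapped.

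In SUM149 the leading gene per kilobase differed between the arms. ADAM19 came first with MUC1shRNA, at 19.4 CPM per kb and 27.7% to 29% of the summed level, and eighth with CshRNA, at 0.699 CPM per kb. After it in MUC1shRNA libraries came ADAM15 (17.8 CPM per kb), ADAM9 (13.3), ADAM8 (5.80), ADAM17 (4.75), ADAM10 (3.86), ADAM12 (1.53), ADAMTS6 (1.15), ADAMTS1 (1.02) and ADAMTS12 (0.0815). Of these neighbours, ADAM19 and ADAM15, and ADAMTS6 and ADAMTS1, overlapped. In CshRNA libraries ADAM15 led, at 24.8 CPM per kb and 42.5% to 43.4% of the summed level, before ADAM9 (14.4), ADAM8 (6.68), ADAM17 (5.59), ADAM10 (3.11), ADAMTS1 (1.54), ADAM12 (0.971), ADAM19 (0.699), ADAMTS6 (0.0986) and ADAMTS12 (0.00933). No neighbours in that order overlapped.

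**Figure D3:**
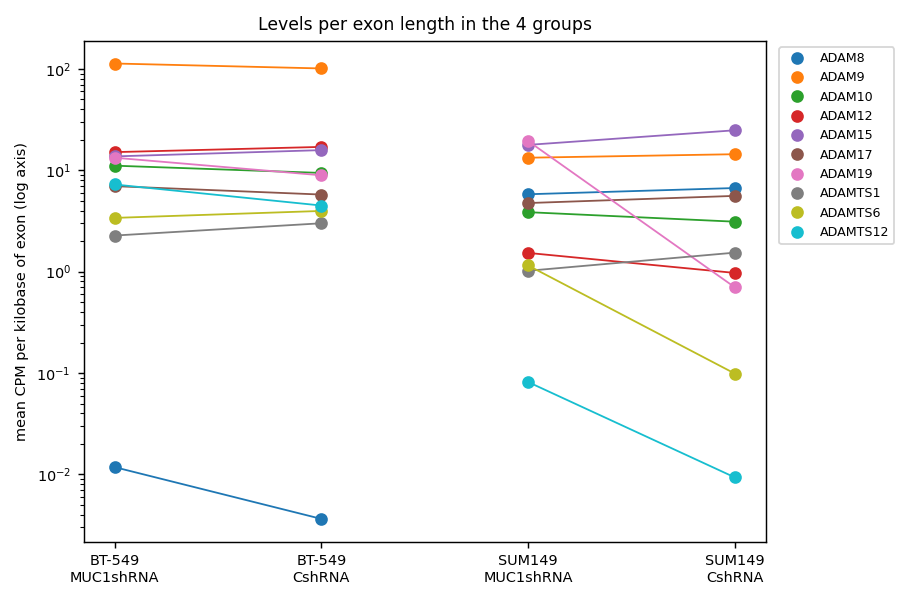
Mean level per kilobase of exon (vertical log axis, CPM per kb) of the 10 genes in the 4 groups (horizontal axis), with points for the means of 3 libraries and lines that join the arms of a line. The ADAM19 point lies at 19.4 in SUM149 MUC1shRNA, above the other members, and at 0.699 in SUM149 CshRNA.

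Genes with the nearest pattern over the 4 groups were sought for the 3 members with the largest changes, as the smallest distance between centred mean log2 CPM over 4 group means from 12 libraries, among 11608 genes. For ADAM19 these were MARCH4 (distance 1.25), C15orf48 (1.34) and CD274 (1.40), which encodes the checkpoint ligand PD-L1. MARCH4 had 1.65 CPM in BT-549 MUC1shRNA and 3.62 CPM in BT-549 CshRNA libraries, the opposite direction to ADAM19 in that line. CD274 had 3.77 CPM in BT-549 MUC1shRNA, 3.08 in BT-549 CshRNA, 11.3 in SUM149 MUC1shRNA and 0.599 in SUM149 CshRNA libraries. For ADAMTS6 they were ANGPTL4 (0.568), which encodes an inhibitor of lipoprotein lipase, C15orf48 (0.828) and CYR61 (0.828), which encodes a matrix-associated signalling protein. ANGPTL4 had 56.0, 75.7, 31.0 and 1.70 CPM in the same order of groups. For ADAMTS12 they were ZEB1 (0.709), a repressor of epithelial genes, HHIP (0.720), which binds hedgehog ligands, and HAS3 (0.859), a hyaluronan synthase. ZEB1 had 53.3, 59.3, 0.722 and 0.116 CPM in that order. Among the members themselves the nearest patterns were ADAM10 with ADAMTS1 (0.889), ADAM15 with ADAM17 (0.901), ADAM17 with ADAMTS1 (0.943) and ADAM9 with ADAM12 (0.956). The distance includes the difference between the lines, so near genes need not respond alike to the hairpin. In BT-549, ADAM10 was called higher (0.23) and ADAMTS1 lower (-0.40).

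The rest of the family was detected in part. A mean of at least 1 CPM in some group was reached by 3 of 14 other ADAM genes, 9 of 16 other ADAMTS genes and 5 of 6 ADAMTS-like genes. ADAMTS15, a matrix protease named here after its values were seen, had in BT-549 65.6 ± 3.15 CPM in MUC1shRNA and 65.7 ± 4.78 CPM in CshRNA libraries (SD, n = 3 each), or 11.6 CPM per kb in both. Of the 14 other ADAM genes, 10 were tested in neither line and 4 of those had 0 counts in all libraries. Of the 16 other ADAMTS genes, 6 were tested in neither line. In SUM149, where 56.5% of all genes were called, ADAMTS3 and ADAMTS7 fell and ADAMTS9 rose, 3 of 4 other ADAMTS genes tested. ADAMTS3, which processes the propeptide of procollagen and of VEGF-C, had 1.14 ± 0.331 CPM with MUC1shRNA and 8.36 ± 0.585 CPM with CshRNA (SD, n = 3 each), which is -2.88 on the log2 scale (SE 0.22, edgeR adjusted p = 1.7e-07). ADAMTS7, which cuts cartilage oligomeric matrix protein as ADAMTS12 does, had 1.39 ± 0.591 and 10.1 ± 0.914 CPM in those groups (-2.84, SE 0.23, edgeR adjusted p = 3.2e-07). ADAMTS9, a versican-cutting protease, had 17.4 ± 0.613 CPM with MUC1shRNA and 6.44 ± 0.139 CPM with CshRNA (1.45, SE 0.11, edgeR adjusted p = 2.2e-07).

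In BT-549, 3 of 7 other ADAMTS genes tested were called, against 33.3% of all genes. ADAMTS3 rose by 0.53 on the log2 scale (SE 0.14, edgeR adjusted p = 0.016), with 8.84 and 6.09 CPM in MUC1shRNA and CshRNA libraries, and was not called without MUC1shRNA 1 (0.52). ADAMTS14, a procollagen-processing relative of it, rose by 1.23 (SE 0.28, edgeR adjusted p = 0.0083), and ADAMTS10, which is linked to fibrillin microfibrils, fell by 1.57 (SE 0.23, edgeR adjusted p = 8.6e-04). ADAM22, a neuronal surface protein without protease activity, had 0.698 and 0.179 CPM in BT-549 MUC1shRNA and CshRNA libraries (1.83, SE 0.56, edgeR adjusted p = 0.031) and 10.3 and 13.5 CPM in SUM149 MUC1shRNA and CshRNA libraries (-0.38, SE 0.14, edgeR adjusted p = 0.036). The ADAM22 call was lost in BT-549 without MUC1shRNA 1 (1.75), MUC1shRNA 3 (1.80) or CshRNA 1 (1.96) and with the replicate block (1.89), and in SUM149 without CshRNA 1 (-0.34), MUC1shRNA 2 (-0.31) or MUC1shRNA 3 (-0.29) and with DESeq2 (-0.36). The ADAMTS-like proteins lack the protease domain. Of them, in BT-549 ADAMTSL1 fell (-1.19, SE 0.07, edgeR adjusted p = 5.3e-06), and ADAMTSL4 (-1.61, SE 0.15, edgeR adjusted p = 1.1e-06) and PAPLN (-1.55, SE 0.30, edgeR adjusted p = 5.9e-04) fell in SUM149. Genes on the other strand share 14.4% of the exon bases of ADAMTSL4.

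Genes that mature, carry or block these proteases are listed next. In SUM149, 4 of 13 tested maturation and trafficking partners rose and 3 fell, against 27.6% and 28.9% of all genes. TSPAN14 (0.73, SE 0.07, edgeR adjusted p = 2.4e-06) and TSPAN5 (0.77, SE 0.10, edgeR adjusted p = 2.0e-05), tetraspanins that carry ADAM10 to the cell surface, rose there, as did PCSK6, a furin-like convertase (0.99, SE 0.11, edgeR adjusted p = 4.8e-06). In BT-549, 1 of 10 tested partners rose and 4 fell, against 16.8% and 16.5% of all genes. TSPAN5 was the one that rose (0.32, SE 0.05, edgeR adjusted p = 0.0017). RHBDF1 (-0.48, SE 0.10, edgeR adjusted p = 0.0062) and RHBDF2 (-0.52, SE 0.11, edgeR adjusted p = 0.0071), the iRhom proteins that escort ADAM17 out of the endoplasmic reticulum, fell in BT-549. RHBDF1 also fell in SUM149 (-0.72, SE 0.10, edgeR adjusted p = 3.2e-05), and RHBDF2 was not called there (-0.21, SE 0.12, edgeR adjusted p = 0.18). The list medians were 0.15 in SUM149 and -0.28 in BT-549, against all-gene medians of -0.03 and -0.01.

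The inhibitors moved in unlike ways, in fits where 33.3% of all genes in BT-549 and 56.5% in SUM149 were called. TIMP3, the TIMP that blocks ADAM17 and several ADAMTS proteases, had 837 ± 101 CPM in BT-549 MUC1shRNA and 60.3 ± 8.56 CPM in BT-549 CshRNA libraries (SD, n = 3 each), which is 3.79 on the log2 scale (SE 0.12, edgeR adjusted p = 1.3e-07). The other 3 inhibitors tested in BT-549 fell: TIMP1 (-0.24, not called without MUC1shRNA 1, MUC1shRNA 3 or CshRNA 2), TIMP2 (-0.25, SE 0.05, edgeR adjusted p = 0.0043) and RECK, a membrane-anchored inhibitor (-0.36, SE 0.07, edgeR adjusted p = 0.0038). In SUM149, TIMP1 (0.80, SE 0.07, edgeR adjusted p = 6.1e-07) and TIMP2 (0.84, SE 0.09, edgeR adjusted p = 2.4e-06) rose and TIMP4 fell (-1.41, SE 0.12, edgeR adjusted p = 5.0e-07), 3 of 4 tested. TIMP4 had 7.08 ± 0.519 CPM with MUC1shRNA and 19.0 ± 1.68 CPM with CshRNA there.

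Of the ligands that ADAM proteases shed, 8 were tested in SUM149, and 2 rose and 5 fell, against 27.6% and 28.9% of all genes. HBEGF (-0.95, SE 0.11, edgeR adjusted p = 1.0e-05) and BTC (-1.34, SE 0.16, edgeR adjusted p = 1.1e-05), ligands of the EGF receptor, fell, and the Notch ligand JAG1 rose (0.59, SE 0.07, edgeR adjusted p = 1.1e-05). In BT-549, where 16.8% of all genes were called higher, 3 ligands were tested and CXCL16, a membrane-bound chemokine, rose (0.69, SE 0.20, edgeR adjusted p = 0.027). That call was lost when any of MUC1shRNA 1 (0.62), MUC1shRNA 3 (0.60), CshRNA 1 (0.61) or CshRNA 2 (0.65) was left out. All 8 ligands tested in BT-549 CshRNA against SUM149 CshRNA were lower in BT-549, against 43.5% of all genes.

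Shed receptors and adhesion proteins were called in both directions. In SUM149, 10 of 22 rose and 5 fell, against 27.6% and 28.9% of all genes. ALCAM, an adhesion protein, had 139 ± 13.0 CPM with MUC1shRNA and 67.4 ± 1.17 CPM with CshRNA (1.06, SE 0.07, edgeR adjusted p = 8.0e-08). MET, the hepatocyte growth factor receptor, rose (0.94, SE 0.07, edgeR adjusted p = 1.5e-07) and APP, the amyloid precursor protein, fell (-0.57, SE 0.06, edgeR adjusted p = 2.3e-06). In BT-549, 5 of 22 rose and 9 fell, against 16.8% and 16.5% of all genes. NOTCH1, which ADAM10 cuts, had 11.4 ± 1.81 CPM with MUC1shRNA and 30.0 ± 1.24 CPM with CshRNA there (-1.39, SE 0.11, edgeR adjusted p = 2.3e-05). SDC1, a heparan sulfate proteoglycan, fell (-1.05, SE 0.08, edgeR adjusted p = 2.0e-05) and ICAM1, which binds leukocyte integrins, rose (0.97, SE 0.08, edgeR adjusted p = 3.6e-05).

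Matrix substrates of ADAMTS proteases completed the lists. In SUM149, 3 of 5 tested rose and 1 fell, against 27.6% and 28.9% of all genes. VCAN, which encodes versican, had 48.1 ± 1.16 CPM with MUC1shRNA and 23.2 ± 0.940 CPM with CshRNA (1.06, SE 0.08, edgeR adjusted p = 1.2e-07), and NID2, a basement membrane protein, had 62.5 ± 3.52 and 22.1 ± 2.06 CPM (1.51, SE 0.09, edgeR adjusted p = 1.7e-08). COL1A1 fell in SUM149 (-0.40, SE 0.12, edgeR adjusted p = 0.012), a call that was lost without CshRNA 1 (-0.29), MUC1shRNA 1 (-0.35) or MUC1shRNA 3 (-0.37). In BT-549, 4 of 7 rose and 1 fell, against 16.8% and 16.5% of all genes. COL3A1 (0.82, SE 0.09, edgeR adjusted p = 1.7e-04) and TFPI2, a protease inhibitor of the matrix (0.91, SE 0.12, edgeR adjusted p = 5.3e-04), rose and the basement membrane gene NID1 fell (-0.66, SE 0.11, edgeR adjusted p = 0.0013). Genes on the other strand share 30.0% of the exon bases of NID2, 23.6% of those of ICAM1, 10.8% of those of PCSK6 and 10.3% of those of TIMP4.

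**Figure D4:**
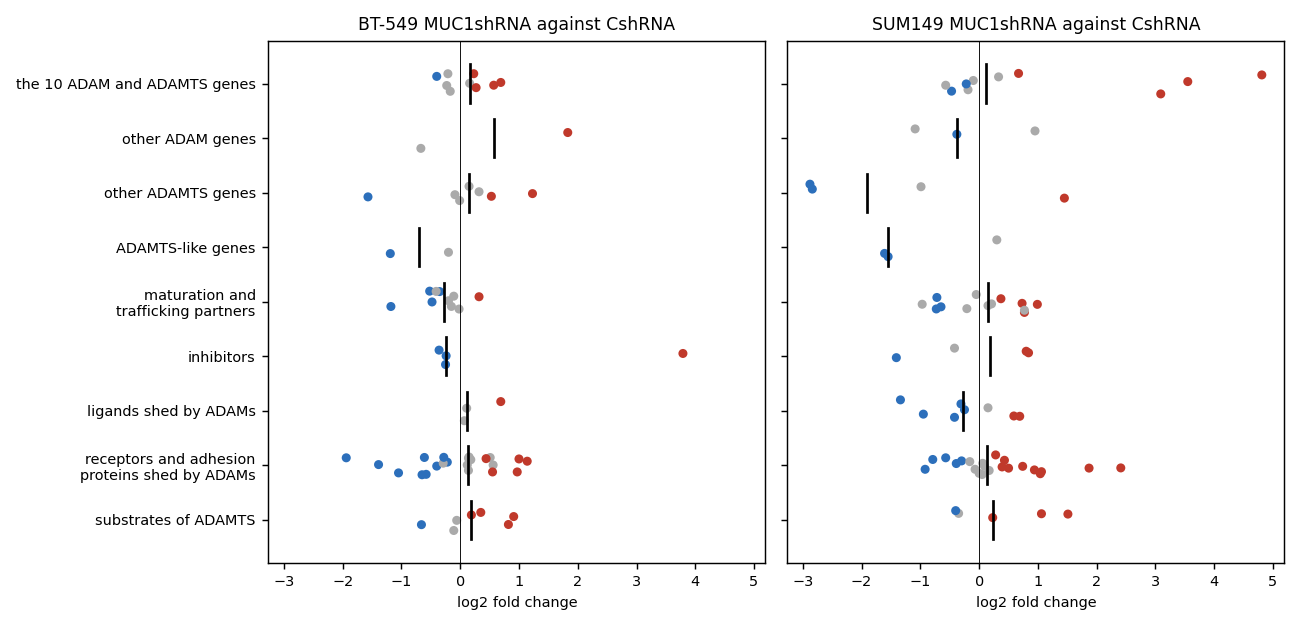
Log2 fold change of MUC1shRNA against CshRNA (horizontal axes) for the tested genes of each list in BT-549 (left panel) and SUM149 (right panel). Red points were called higher, blue points lower and grey points were not called, black bars are list medians, and TIMP3 at 3.79 stands alone among the inhibitors in BT-549.

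Markers of cell state changed in part, and differently in each line. FN1, the mesenchymal marker called in SUM149, rose by 2.03 on the log2 scale (SE 0.07, edgeR adjusted p = 1.4e-10). VIM, the other mesenchymal marker, was not called there, with 32.2 ± 3.57 CPM in MUC1shRNA and 31.4 ± 1.84 CPM in CshRNA libraries. Their sum, nearly all FN1, was 2979 to 3346 CPM in SUM149 MUC1shRNA and 765 to 860 CPM in SUM149 CshRNA libraries. In BT-549 that sum was 3130 to 4090 CPM with MUC1shRNA and 2910 to 3390 CPM with CshRNA. Neither marker was called there in the main fit. FN1 in BT-549 was called higher with no filter (0.37) and with DESeq2 (0.37). It was also called without MUC1shRNA 2 (0.53) and without MUC1shRNA 2 and CshRNA 3 together (0.43). The epithelial marker KRT8 rose in BT-549 (2.66, SE 0.08, edgeR adjusted p = 1.3e-07), as did KRT18. These genes overlap on opposite strands, over 7.63% of the exon bases of KRT8 and 16.3% of those of KRT18. Whether they share reads is unknown, because the strand setting of the counting is not stated. In BT-549 the 5 epithelial markers summed to 792 to 1030 CPM with MUC1shRNA and 318 to 368 CPM with CshRNA, nearly all from KRT8 and KRT18. KRT19, CDH1 and EPCAM had 0.627, 1.37 and 0.0368 CPM with MUC1shRNA, against 0.313, 0.889 and 0.287 CPM with CshRNA. In SUM149 the 5 markers summed to 1759 to 1843 CPM with MUC1shRNA and 1712 to 1740 CPM with CshRNA. Of the basal markers in SUM149, KRT5 fell (-0.99, SE 0.07, edgeR adjusted p = 6.0e-08), and KRT17 (0.56, SE 0.09, edgeR adjusted p = 1.5e-04) and KRT14 (1.11, SE 0.33, edgeR adjusted p = 0.011) rose. The KRT14 groups overlapped, and its call was lost without MUC1shRNA 2 (0.95) or MUC1shRNA 3 (0.93). In BT-549 KRT5 rose (0.39, SE 0.11, edgeR adjusted p = 0.021), a call that was lost without MUC1shRNA 1 (0.36), MUC1shRNA 3 (0.40), CshRNA 2 (0.37) or CshRNA 3 (0.31). The epithelial marker KRT19 fell in SUM149 (-0.41, SE 0.07, edgeR adjusted p = 1.4e-04), and in BT-549 the leukocyte marker PTPRC, at 0.273 CPM with MUC1shRNA and 1.07 CPM with CshRNA, fell by 1.95 on the log2 scale (SE 0.36, edgeR adjusted p = 0.0029). The endothelial marker PECAM1 fell in SUM149 (-1.54, SE 0.11, edgeR adjusted p = 8.5e-08), with CDH5 and VWF not tested in either line. The part of these states in the members' changes was not tested.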

How the data were processed

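The authors deposited raw read counts, 1 column per library and 1 line per versioned Ensembl gene, not normalized. Per the submitters' processing notes, the genome build was GRCh38.p7 and the tools included STAR 2.7.0, CASAVA 1.8.2 and DESeq2 1.24.0. Per the labels' protocols, libraries came from a TruSeq Stranded mRNA kit. How reads were assigned to genes, with which strand setting and annotation, is not stated. Symbols, positions and exon lengths (all annotated exons merged) came from GENCODE release 29 on GRCh38, which matched 57388 of 58037 identifiers. A further 45 pseudoautosomal Y copies were left out, which leaves 57992 genes.

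edgeR 4.0.16 (R 4.3.3) was run on each line separately (TMM, filterByExpr, quasi-likelihood test, Benjamini-Hochberg over all tested genes, threshold 0.05). The difference between responses and the line contrast used all 12 libraries. SE is the log2 fold change over the square root of F. The steps were tested on simulated data. Replicate libraries differed beyond counting noise (chi-square per degree of freedom 1.85 to 14.5), so none was a copy. Intervals and floors cover counting error only, since reads carried no molecular identifiers.

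Besides the 10 members, the text names MUC1, every called relative in the family, the 3 called genes of smallest adjusted p per list and line, and the 3 genes nearest in pattern to each of the 3 members with the largest fold changes, among genes with at least 5 CPM in the highest group (prior count 2). C15orf48 counts under 2 members, and other names were added after their values were seen. Members and lists were chosen with earlier results of these data known. Alternatives were RLE scaling, upper-quartile scaling, fits with no filter or with a filter of 5 CPM in 3 libraries, DESeq2 1.42.0, a replicate block, thinning to equal depth and leaving out each library. Leaving out the libraries that stood apart was added after seeing the data. Not every marker gene examined is reported here.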

Additional observations from a re-analysis of the deposited data

Results flagged for a closer look

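The response to MUC1shRNA differed between the lines for 6 of the 10 proteases and for 23 of the other named genes that were tested in both lines, by the test of the difference itself in edgeR's fit over all 12 libraries. In that fit 39.6% of all 15649 tested genes were called. The other named genes, MUC1 aside, had been picked as called in a line, so these counts were not read as a result. Values are log2 fold changes in BT-549 minus those in SUM149, and their explanation was not tested.

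For the proteases, described without p because they were chosen from these data, the differences were 0.27 for ADAM9, -0.82 for ADAM12, 0.51 for ADAM17, -4.22 for ADAM19, -3.76 for ADAMTS6 and -2.39 for ADAMTS12. In the wider family they were 2.23 for ADAM22 (SE 0.53), 3.43 for ADAMTS3 (SE 0.26) and 1.43 for ADAMTSL4 (SE 0.27). ADAMTS3 was called in opposite directions, at 0.53 in BT-549 and -2.88 in SUM149 (edgeR adjusted p of the difference 1.6e-07). Relatives tested in 1 line only were also called: ADAMTS14 at 7.17 (SE 1.21), ADAMTS7 at 4.24 (SE 0.81), ADAMTS4 at 2.75 (SE 0.59), ADAM23 at 2.10 (SE 0.76) and ADAMTSL1 at -3.97 (SE 0.91). The shed ligand BTC, likewise, stood at 3.35 (SE 0.74). These fitted values rest on few counts in the other line, where ADAMTS14 had 0 counts in SUM149 MUC1shRNA libraries, and give no bound.

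Among partners and inhibitors the differences were -0.43 for TSPAN5, -0.92 for TSPAN14, -1.08 for TIMP2 and -1.02 for TIMP1. Both TIMP1 and TIMP2 were called lower in BT-549, at -0.24 and -0.25, and higher in SUM149, at 0.80 and 0.84. Among shed proteins they were 1.07 for HBEGF, -1.47 for SDC1, -1.42 for NOTCH1, -0.60 for ALCAM, -0.38 for MET and 0.77 for APP. For ADAMTS substrates they were 0.69 for TFPI2, -1.60 for NID2, -1.11 for VCAN and 0.60 for COL1A1. For markers of cell type they were 2.59 for KRT8, 1.05 for KRT18, 1.40 for KRT5, -1.65 for FN1, 0.62 for ERBB2 and 1.08 for CD14.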

How the results depend on the processing

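No called value of a named gene changed sign under any alternative that was run. Of the proteases' values that were not called, the difference between responses turned sign for ADAM10 (0.05 without SUM149 CshRNA 1) and ADAMTS1 (-0.24 without SUM149 CshRNA 3), as did the line contrast of ADAM17. Of 327 values of the proteases with 1 library left out, 305 kept their call, 12 lost it and 10 gained it. For the other named genes 436 of 471 kept it. In BT-549, between 3 and 7 proteases were called with 1 library left out, 3 of them without MUC1shRNA 1 or MUC1shRNA 3, and 9 without MUC1shRNA 2 and CshRNA 3 together, against 5 with all libraries. Genes called there ranged from 2716 (without MUC1shRNA 1) to 4470, against 4398. In SUM149, 5 to 6 proteases and 6866 to 8306 genes were called with 1 library left out, for the difference between responses 5 to 7 and 5508 to 6420, and for the line contrast 9 to 9 and 12771 to 13306. ADAM10 in SUM149 was called under RLE scaling (0.34), no filter (0.29), the stricter filter (0.31), DESeq2 (0.34) and thinning (0.32). ADAM8 in SUM149 was called with upper-quartile scaling and thinning. Upper-quartile scaling moved the median of all genes to -0.19 in the line contrast, against -0.07, and no filter to -0.20 in SUM149, against -0.03. ADAMTS12 did not pass the filter in SUM149, and so gave no value, under the stricter filter, after thinning or without any one of the 3 CshRNA libraries.

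The replicate block left 2951 genes and 4 proteases called in BT-549, 7934 and 7 in SUM149, 5972 and 6 for the difference and 12929 and 9 for the line contrast. ADAM10 lost its call in BT-549 and gained it in SUM149 (0.35). The samples share only a number: deviations of same-numbered libraries correlated at 0.0746, -0.301 and -0.293 in BT-549 and -0.0995, 0.143 and 0.138 in SUM149. Libraries of unlike number correlated at -0.170 to 0.344 in BT-549 and -0.221 to 0.242 in SUM149. The highest, 0.344, was between BT-549 MUC1shRNA 2 and CshRNA 3, the libraries that stood apart in that line. The values of ADAM8 in BT-549 and ADAMTS12 in SUM149 rest on few counts.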

Other observations

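SUM149 CshRNA 3 differed from the other two SUM149 controls in more of the family than ADAM10, ADAMTS1 and ADAMTS12. ADAMTSL3, an ADAMTS-like protein, had 3.97 CPM there, against 0.0766 and 0 CPM in CshRNA 1 and 2. ADAM11, a relative without protease activity, had 1.41 CPM there, against 0.421 and 0.472 CPM. TSPAN15, a tetraspanin partner of ADAM10, had 4.97 CPM there, against 1.03 and 0.756 CPM. PGR, which encodes the progesterone receptor, had 1.55 CPM there and 0 counts in the other two. COL1A2, a fibrillar collagen, did not differ, with 0 counts in all 3 SUM149 controls. TIMP3 had 2 counts, ADAMTS2 1 count and TNFRSF1B 1 count over those controls, all in CshRNA 3. What set this library apart was not tested. These genes were chosen after their values were seen.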
